A study of Mus with 16 samples.

Results

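The genes described here are 8 genes that mark the endothelial cells of brain blood vessels: *Pecam1* (ENSMUSG00000020717), *Cldn5* (ENSMUSG00000041378), *Cdh5* (ENSMUSG00000031871), *Flt1* (ENSMUSG00000029648), *Kdr* (ENSMUSG00000062960), *Tek* (ENSMUSG00000006386), *Tie1* (ENSMUSG00000033191), and *Slc2a1* (ENSMUSG00000028645). They were taken by identifier from a count table of 54219 mouse genes, 35337 of them detected in 1 or more animals. All 8 were counted in every animal, and all 8 were among the 17866 genes that passed the filter on low counts.

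Endothelial cells line the vessels of the brain and form the blood-brain barrier, which seals the space between cells and moves nutrients such as glucose through transporters. Their growth is steered by vascular endothelial growth factor (VEGF), which acts through a signalling receptor (*Kdr*) and is bound by a decoy receptor (*Flt1*). A second pathway, that of the angiopoietins, stabilizes vessels through the receptor *Tek* and its partner *Tie1*. In the first postnatal week of the mouse, vessels of the cortex and hippocampus are still sprouting and branching.

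Bulk mRNA-seq was performed on forebrains (cortex and hippocampus) of 16 mice at postnatal day 6 (P6), to ask how loss of the X-linked histone demethylase gene *Kdm5c* alters transcription in each sex. Each of the 4 groups held 4 animals: wild-type (WT) males, hemizygous knockout males (*Kdm5c*-KO), WT females, and heterozygous females (*Kdm5c*-HET). The mutant allele lacks a pair of *Kdm5c* exons removed with Cre, and the animals were of mixed descent from C57BL/6J and another inbred strain. The 16 animals came from 3 litters, but the labels do not say which animal came from which litter, and the level of *Kdm5c* itself was not analysed here. Each label also carries a number and the letter D or E (for example 2D), and what the letter stands for is not stated. Among males, 1 WT and 2 *Kdm5c*-KO animals carry the letter E, and among females, 2 WT and 3 *Kdm5c*-HET animals do.

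Library totals lay between 21513783 and 30063352 counts, and the 8 genes had between 244 and 1737 counts per animal. Over 24 pairs of animals of the same group, counts differed by more than sampling noise, with a chi-square statistic per gene of 2.78 to 13.9. No 2 libraries of a group therefore looked like the same library counted again, and each animal was used as 1 replicate. Levels are given as CPM, counts scaled to library size after TMM normalization but not divided by gene length, so that levels were compared between animals and not between genes. In bulk tissue, fewer endothelial cells and less RNA per endothelial cell cannot be told apart.

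On GRCm38.p6, the assembly also called mm10, RefSeq places 3 of the 8 genes on chromosome 4: *Tek* at chr4:94739086-94874976, *Tie1* at chr4:118471191-118489849, and *Slc2a1* at chr4:119108745-119137330. *Tie1* and *Slc2a1* lie 618895 bases apart. *Kdr* lies at chr5:75932827-75979072, *Flt1* at chr5:147561604-147726438, and *Cdh5* at chr8:104101613-104144504. *Pecam1* lies at chr11:106654213-106715281 and *Cldn5* at chr16:18776847-18778262. Other annotated genes overlap the spans of *Cdh5*, *Flt1*, *Kdr*, and *Slc2a1*, and because the strand setting of the counting is not stated, reads of these genes and their overlapping neighbours may be mixed. *Tie1*, *Tek*, *Pecam1*, and *Cldn5* have no overlapping gene in that annotation.

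Differences between mutant and WT forebrains were small for the endothelial genes, and in each sex the largest was a modestly higher level of *Tie1*, the partner of the angiopoietin receptor. In *Kdm5c*-KO males, 7 of the 8 genes had a positive Log2FC against WT males, with a median of 0.06 and a range from -0.0049 in *Cdh5* to 0.17 in *Tie1*. The median moved with single animals, from 0.03 without WT male 7D (6 of 8 positive) to 0.11 without WT male 1E (8 of 8 positive). Over all genes tested, 48% had a positive Log2FC in males, and the median was -0.01. None of the 8 was called at an adjusted p (q) under 0.1 by the quasi-likelihood test of edgeR, with Benjamini-Hochberg adjustment over all genes, in a contrast that called 5.24% of the genes tested. By edgeR, 1 of the 8 (*Tie1*) had an unadjusted p under 0.05, against 16.5% of all genes tested, and DESeq2 also called 0 of the 8 and gave 1 with an unadjusted p under 0.05. In *Kdm5c*-HET females, all 8 Log2FC values were positive, with a median of 0.04 and a range from 0.00 in *Flt1* to 0.21 in *Tie1*, beside 49.6% positive values over all genes. That count rested on single animals, and it fell to 4 of 8 without *Kdm5c*-HET 9D, where *Flt1* (-0.05), *Kdr* (-0.04), *Tek* (-0.04), and *Slc2a1* (just below 0) were negative, and to 4 of 8 without WT female 5E. edgeR again called 0 of the 8 in females, where 0.509% of the genes tested were called, and *Tie1* was again the 1 gene with an unadjusted p under 0.05, against 6.49% of all genes. DESeq2 likewise called 0 of the 8 in females and gave 1 with an unadjusted p under 0.05.

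**Figure D1:**
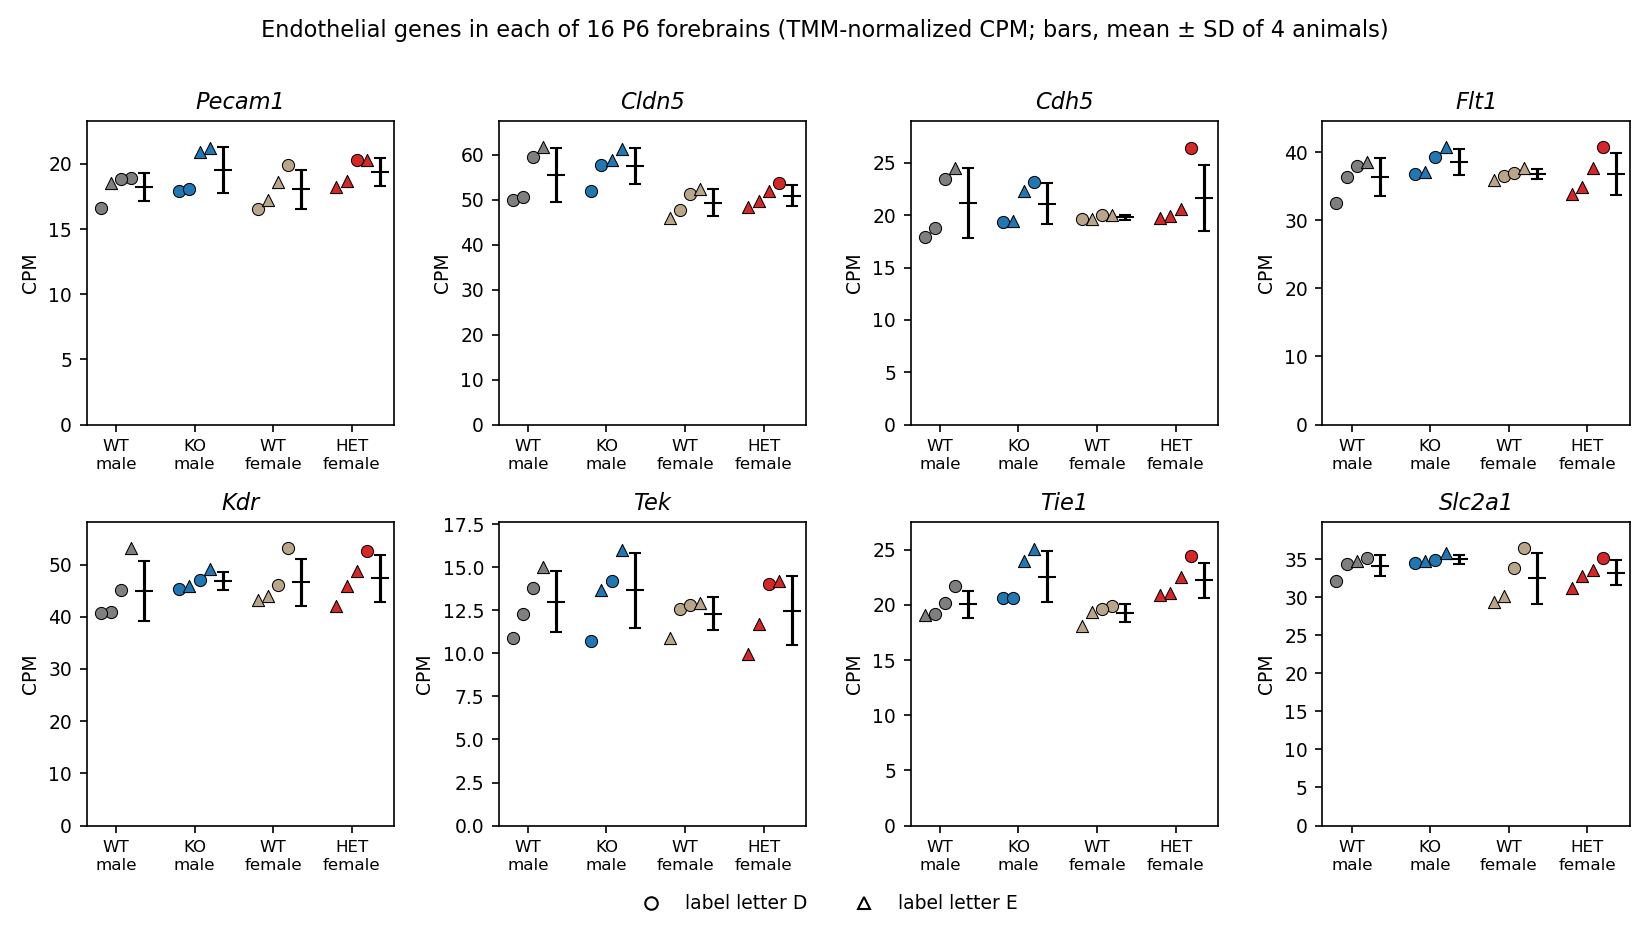
TMM-normalized CPM (vertical axes, starting at 0) of the 8 endothelial genes in each of the 16 animals, by group. Circles are animals with the letter D and triangles animals with the letter E, and bars give the mean ± SD of 4 animals. The groups overlap in every panel except for *Tie1* in females, where the 4 *Kdm5c*-HET animals (20.9 to 24.4) lie above the 4 WT animals (18.1 to 19.9).

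*Tie1* encodes an orphan receptor tyrosine kinase that pairs with the angiopoietin receptor. Its levels in WT males were 21.7 CPM in 2D, 20.2 in 5D, 19.2 in 7D, and 19.1 in 1E, and in *Kdm5c*-KO males they were 20.6 in 4D, 20.6 in 6D, 24 in 2E, and 25.1 in 3E. The *Kdm5c*-KO animals of letter E were the highest of all males, while those of letter D lay within the WT range. In WT females, *Tie1* was at 19.9 CPM in 1D, 19.6 in 3D, 19.4 in 4E, and 18.1 in 5E, and in *Kdm5c*-HET females at 24.4 in 9D, 22.5 in 6E, 21.1 in 8E, and 20.9 in 9E. Every *Kdm5c*-HET female lay above every WT female. Such a separation, with all 4 mutants above all 4 WT animals, was found for 1 of the 8 endothelial genes in females, where 2.78% of all genes tested showed it, and for 0 of the 8 in males, where 5.04% showed it. Across both sexes, 7 of the 8 animals with the highest *Tie1* were mutants, and WT male 2D was the only WT animal above any mutant.

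The group means of *Tie1* were 20.1 ± 1.19 CPM in WT males and 22.6 ± 2.34 in *Kdm5c*-KO males (SD, n = 4). This was a Log2FC of 0.17 (SE 0.0756, 95% interval 0.01 to 0.33), a difference of 12.4%, with q = 0.27 by edgeR's quasi-likelihood test. In females the means were 19.2 ± 0.781 CPM in WT and 22.2 ± 1.61 in *Kdm5c*-HET animals (SD, n = 4), a Log2FC of 0.21 (SE 0.0757, 95% interval 0.05 to 0.37) with q = 0.527 by edgeR. Neither contrast alone passed the threshold.

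When the male and female Log2FC were averaged, so that all 8 mutants were set against all 8 WT animals, *Tie1* was upregulated by 14.0%. Its averaged Log2FC was 0.19 (SE 0.0535, 95% interval 0.08 to 0.30), with q = 0.0592 by the quasi-likelihood test of edgeR. It was the 1 endothelial gene of 8 called in this contrast, which called 5.12% of the genes tested, and DESeq2 also called 1 of the 8. The SD of *Tie1* within groups was 0.104 on the log2 scale, and the call was lost when any of 6 animals was left out: *Kdm5c*-HET 9D (q = 0.112), *Kdm5c*-HET 6E (q = 0.114), WT male 7D (q = 0.116), WT male 1E (q = 0.103), *Kdm5c*-KO 2E (q = 0.121), or *Kdm5c*-KO 3E (q = 0.135). It was kept in the other 10 of 16 such fits by edgeR, and the averaged Log2FC stayed between 0.16 and 0.21.

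*Tek*, the receptor for the angiopoietins, had the widest pooled spread within groups of the 8 genes. Males ranged from 10.9 to 15.0 CPM (WT) and from 10.7 to 16 (*Kdm5c*-KO), and females from 10.9 to 12.9 (WT) and from 9.99 to 14.2 (*Kdm5c*-HET). The groups overlapped almost fully, and the Log2FC was 0.07 in males (95% interval -0.20 to 0.33) and 0.02 in females (95% interval -0.25 to 0.29). No genotype contrast of *Tek* came near the threshold (lowest q = 0.85, in males, by edgeR), and its intervals overlap those of its partner *Tie1*.

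For the VEGF receptors, the highest group mean was 1.05 times the lowest for *Kdr* and 1.06 times the lowest for *Flt1*. *Kdr*, the signalling receptor, had means of 45.0 ± 5.77 CPM in WT and 46.9 ± 1.69 in *Kdm5c*-KO males, and of 46.6 ± 4.49 in WT and 47.3 ± 4.48 in *Kdm5c*-HET females (SD, n = 4). The highest *Kdr* values were found in a WT animal of each sex, 53.1 CPM in male 1E and 53.1 in female 3D. *Flt1*, the decoy receptor, had means of 36.4 ± 2.71 CPM in WT males and 38.5 ± 1.87 in *Kdm5c*-KO males, and of 36.8 ± 0.759 in WT and 36.8 ± 3.12 in *Kdm5c*-HET females (SD, n = 4). The Log2FC of *Flt1* was 0.08 in males (95% interval -0.05 to 0.22) and 0.00 in females (95% interval -0.13 to 0.13), and that of *Kdr* was 0.06 in males (95% interval -0.11 to 0.24) and 0.02 in females (95% interval -0.15 to 0.19).

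Among the genes of cell junctions, *Pecam1*, an adhesion molecule of the endothelial cell border, had the same Log2FC of 0.10 in each sex (95% interval -0.06 to 0.27 in each). Its means were 18.2 ± 1.06 CPM in WT and 19.5 ± 1.77 in *Kdm5c*-KO males, and 18.0 ± 1.51 in WT and 19.4 ± 1.11 in *Kdm5c*-HET females (SD, n = 4). The averaged Log2FC of 0.10 had an unadjusted p of 0.0776 and q = 0.4 by edgeR, the lowest of the 8 genes after *Tie1*. *Cdh5* encodes VE-cadherin, the adherens junction protein of endothelium. It ranged from 17.9 to 24.5 CPM in WT males and from 19.4 to 23.2 in *Kdm5c*-KO males, with a Log2FC of -0.0049 (95% interval -0.22 to 0.21). In WT females, *Cdh5* was nearly constant, from 19.6 to 20 CPM, while 3 of the *Kdm5c*-HET females lay between 19.7 and 20.6 and the fourth, 9D, was at 26.4. The female Log2FC of 0.13 (95% interval -0.09 to 0.35) fell to 0.02 without that animal.

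*Cldn5*, the main claudin of the tight junctions of the blood-brain barrier, had a Log2FC of 0.05 in males and 0.04 in females. *Slc2a1* encodes GLUT1, the glucose transporter of the barrier. It lay between 32.1 and 35.2 CPM in WT males and between 34.5 and 35.8 in *Kdm5c*-KO males, a Log2FC of 0.04 (95% interval -0.10 to 0.17). In females it lay between 29.4 and 36.5 CPM in WT and between 31.2 and 35.2 in *Kdm5c*-HET animals, a Log2FC of 0.03 (95% interval -0.10 to 0.16).

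At the spread measured for each gene, a call in males needed a fold of about 1.15 for *Slc2a1* and *Flt1* and up to 1.32 for *Tek*, and in females between 1.2 for *Slc2a1* and *Flt1* and 1.45 for *Tek*. For the average of the sexes it needed between 1.1 for *Slc2a1* and *Flt1* and 1.22 for *Tek*. Leaving aside *Tie1*, the 95% intervals of the fold reached from 0.857 (*Cdh5*) to 1.26 (*Tek*) in males, and from 0.843 (*Tek*) to 1.27 (*Cdh5*) in females. For the average of the sexes they reached from 0.905 to 1.18, both in *Tek*.

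**Figure D2:**
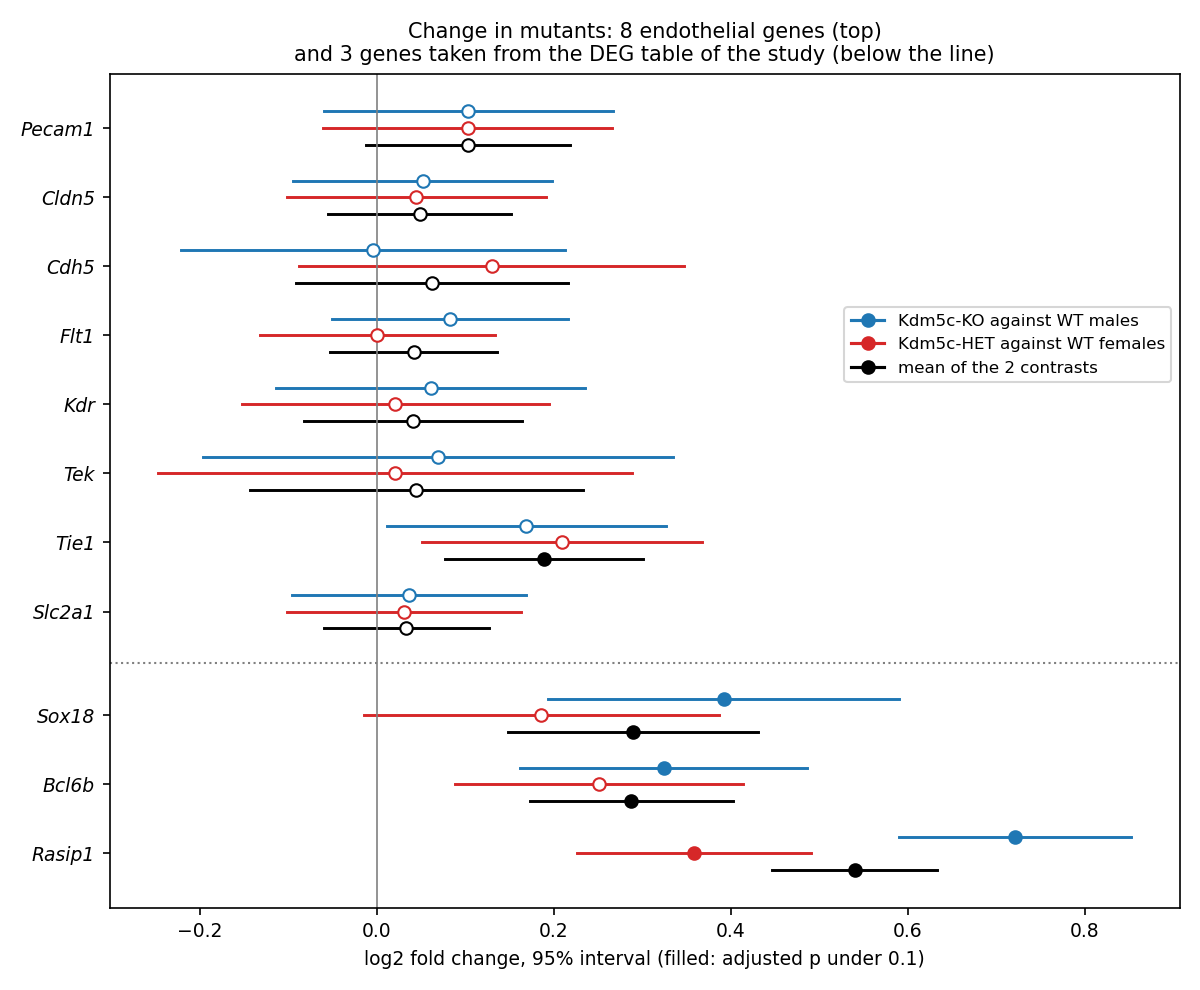
Log2FC (horizontal axis, log2 scale) with 95% intervals of the 8 endothelial genes in *Kdm5c*-KO against WT males, *Kdm5c*-HET against WT females, and the average of these contrasts, and, below the dotted line, of *Sox18*, *Bcl6b*, and *Rasip1*. Filled points have an adjusted p under 0.1. Of the 8 genes, *Tie1* alone has a filled point, for the average (0.19), while *Rasip1* reaches 0.72 in males.

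The male and female responses were compared directly with an interaction contrast. edgeR called 0 of the 8 genes in this contrast, which called 0.0392% of the genes tested, no endothelial gene had an unadjusted p under 0.05 (0 of 8, against 6.37% of all genes), and DESeq2 gave 0 on each count. The difference between the male and the female Log2FC ranged from -0.13 in *Cdh5* to 0.08 in *Flt1*. For *Tie1* it was -0.04 (95% interval -0.26 to 0.18, q = 0.974 by edgeR).

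*Tie1* was also expressed relative to the mean log2 CPM of the other 7 genes in the same animal, with the mean of the WT animals set to 0. A shift that all of these genes share in an animal cancels on this scale. Among females, the relative level was -0.01 ± 0.00944 in WT and 0.15 ± 0.0176 in *Kdm5c*-HET animals (SD, n = 4), with the 4 *Kdm5c*-HET animals between 0.14 and 0.17 and the 4 WT animals between -0.02 and 0.00. The SD of *Tie1* itself on the log2 scale was larger, 0.0594 in WT and 0.102 in *Kdm5c*-HET females. The small relative spread of 4 animals was therefore not used to judge the separation. In males the relative level was 0.01 ± 0.143 in WT and 0.11 ± 0.11 in *Kdm5c*-KO animals (SD, n = 4), and the groups overlapped, with WT animals between -0.20 and 0.12 and *Kdm5c*-KO animals between -0.03 and 0.23. Because *Tie1* was singled out by its own levels, these values are a description and were not tested.

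**Figure D3:**
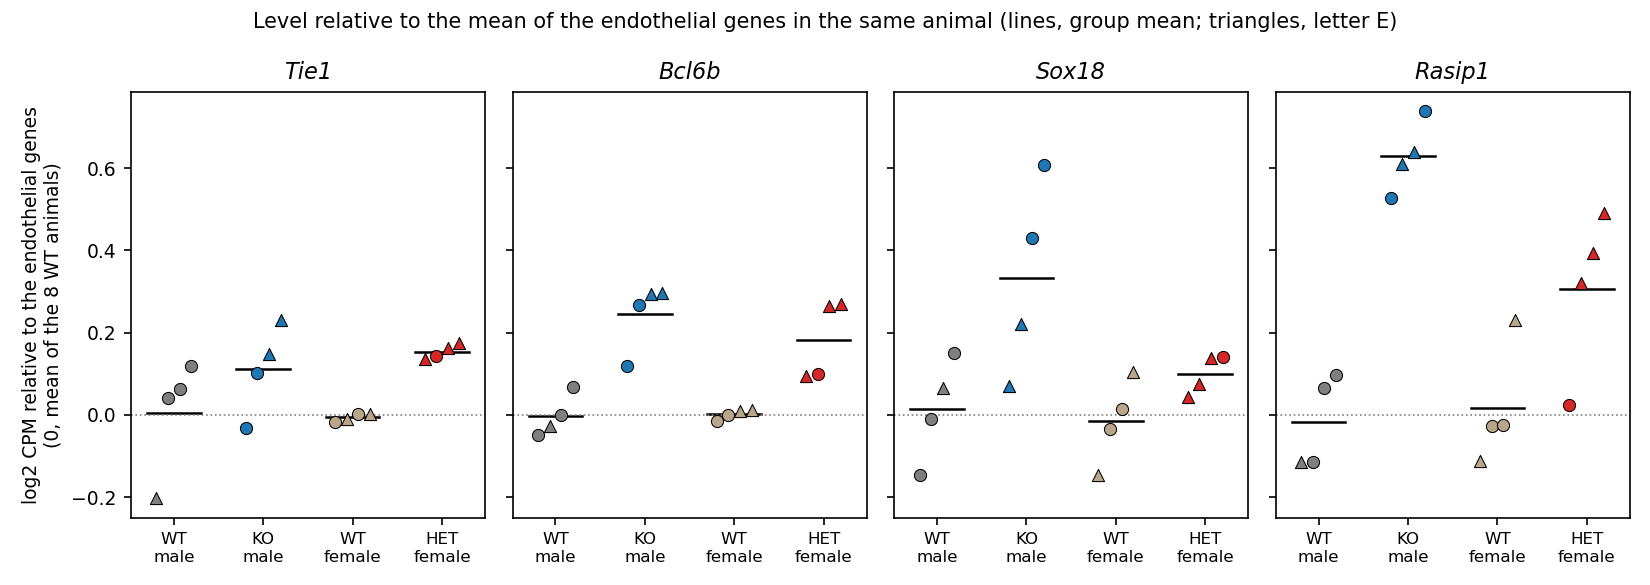
Log2 CPM of *Tie1*, *Bcl6b*, *Sox18*, and *Rasip1* in each animal relative to the mean of the endothelial genes in that animal (the other 7 for *Tie1*, all 8 for the rest), with 0 at the mean of the 8 WT animals. Circles are letter D, triangles letter E, and lines group means. The 4 *Kdm5c*-HET females sit between 0.14 and 0.17 for *Tie1*, above the 4 WT females, and the mean of *Kdm5c*-KO males is 0.63 for *Rasip1*.

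Animals of the same group differed from each other in the level of the endothelial genes as a set. The summed level of the 8 genes ranged from 221.5 CPM in WT female 5E to 267.5 CPM in *Kdm5c*-HET female 9D. *Kdm5c*-HET 9D was above the mean of the 16 animals for all 8 genes and was the highest of its group for 6 of them. *Kdm5c*-KO males 2E and 3E were above the mean for 7 genes each, and so was WT male 2D. At the other end, WT male 5D, WT female 5E, and *Kdm5c*-HET female 9E were above the mean for 0 of the 8 genes. High and low animals were thus found in WT and in mutant groups.

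**Figure D4:**
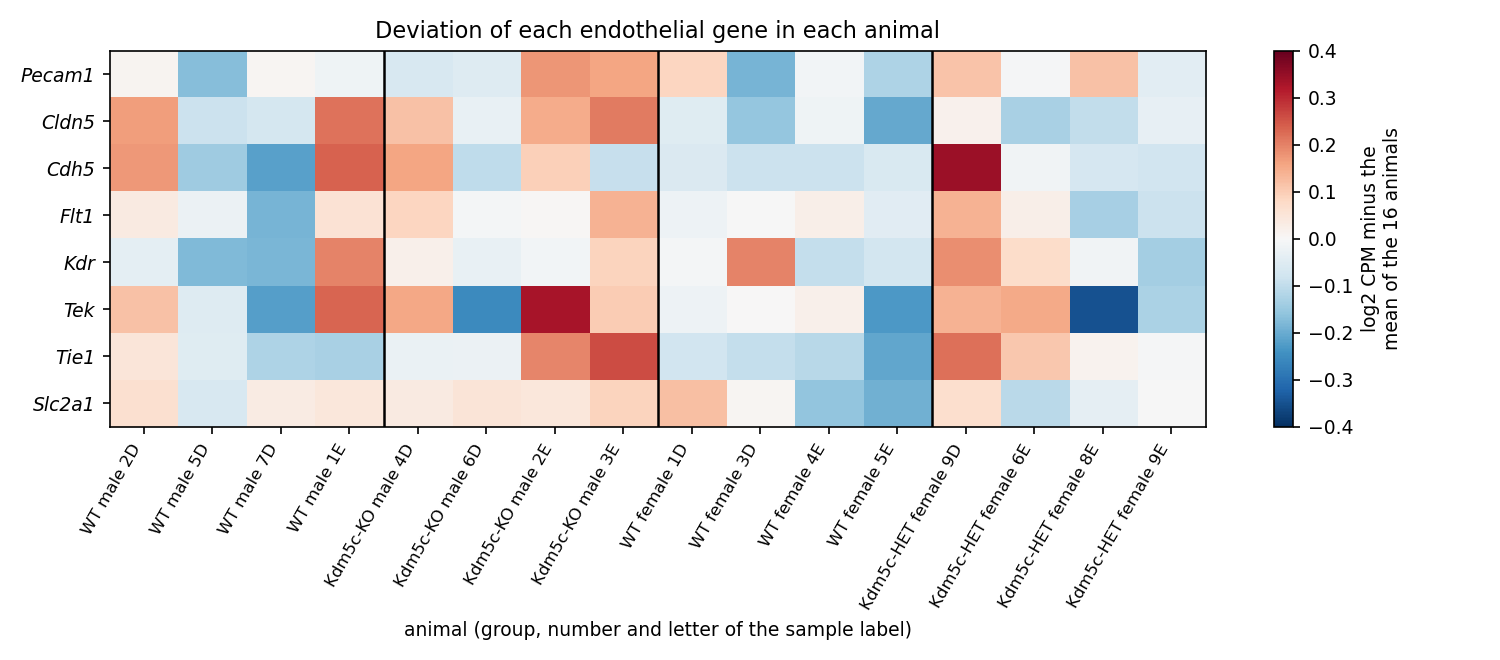
Log2 CPM of each endothelial gene (rows) in each animal (columns, ordered by group and divided by lines) minus the mean of the 16 animals, with red for higher and blue for lower. *Kdm5c*-HET 9D is above the mean in all 8 rows, and WT male 5D, WT female 5E, and *Kdm5c*-HET 9E are above it in 0 rows.

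Within groups, the 8 genes tended to move together from animal to animal. The deviation of each animal from its group mean (log2 CPM) was correlated over the 16 animals for all 28 pairs of genes. Pearson's r was positive for 28 of 28 pairs, with a median of 0.471 and a range from 0.0904 (*Pecam1* and *Flt1*) to 0.722 (*Flt1* and *Tek*). Among the 8 animals of letter D alone, r was positive for 28 pairs, and among the 8 of letter E for 27. The group means were taken over both letters, so the differences between D and E described below remain in these deviations. This holds also for the values within a letter. Animals were permuted within groups and not within letters, and the part of the letter in these correlations was not tested. For *Flt1* and *Tek*, r was 0.722 (permutation p = 0.0123, within groups, two-sided) and Spearman's rho was 0.691 (permutation p = 0.0239). After Benjamini-Hochberg adjustment over the 28 pairs, these were q = 0.1 and q = 0.11, r was 0.66 without the 2 animals farthest from the median of *Flt1*, and it was 0.849 in letter D and 0.631 in letter E. For the VEGF receptors *Flt1* and *Kdr*, r was 0.666 (permutation p = 0.0214, q = 0.1) and rho 0.753 (permutation p = 0.00492, q = 0.11), and r was 0.556 without the 2 extreme animals, 0.659 in letter D, and 0.682 in letter E. *Tek* and *Tie1*, the angiopoietin receptor and its partner, had an r of 0.567 (permutation p = 0.0691, q = 0.149) and a rho of 0.494 (permutation p = 0.118, q = 0.174), with r at 0.428 without the 2 extreme animals, 0.688 in letter D, and 0.474 in letter E. The number of the 28 pairs with q under 0.05 was 0. All pairs share the same libraries and their normalization, and pairs of other genes were not correlated for comparison.

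The spread within groups differed between the genes. The SD of log2 CPM within groups was, pooled over the 4 groups, 0.0869 for *Slc2a1*, 0.0902 for *Flt1*, 0.104 for *Tie1*, 0.107 for *Pecam1*, 0.108 for *Cldn5*, 0.133 for *Kdr*, 0.164 for *Cdh5*, and 0.206 for *Tek*. The median was 0.143 over all genes tested and 0.103 over the 4917 genes whose mean level lay within the range of the 8. The order changed with the animals taken: over all 16, *Flt1* had a lower SD (0.0874) than *Slc2a1* (0.0889), and among WT females *Slc2a1* had the highest (0.145). Over all 16 animals, the highest level was 1.24 times the lowest for *Slc2a1* and 1.61 times the lowest for *Tek*.

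Between WT males and females, the largest difference was in *Cldn5*, the tight junction gene. It was at 59.5 CPM in WT male 2D, 50.0 in 5D, 50.5 in 7D, and 61.6 in 1E, and at 51.2 in WT female 1D, 47.7 in 3D, 52.4 in 4E, and 46.0 in 5E. The sexes overlapped, with 2 males above all females and 2 males among them. The Log2FC of WT females against WT males was -0.17 (SE 0.0701, 95% interval -0.31 to -0.02), with an unadjusted p of 0.0275 and q = 0.211 by edgeR, and q ranged from 0.119 to 0.466 over the alternative settings and was between 0.165 and 0.451 when each animal was left out. edgeR called 0 of the 8 genes between the sexes, where 5% of the genes tested were called, and *Cldn5* was the 1 gene of 8 with an unadjusted p under 0.05, against 18.1% of all genes. DESeq2 likewise called 0 of the 8 and gave 1 with an unadjusted p under 0.05. Of the 8 Log2FC values, 2 were positive (*Kdr* 0.05 and *Flt1* 0.02), and the median was -0.06.

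The letter of the sample label was examined because animals of a genotype are split unevenly over it. With the genotype groups in the model, edgeR called 23.6% of the genes tested between E and D, but 0 of the 8 endothelial genes. None of the 8 had an unadjusted p under 0.05 (0 of 8 by edgeR and 0 by DESeq2, against 29.7% of all genes by edgeR), and DESeq2 called 0. *Slc2a1* was the gene with the lowest q, at 0.252 by edgeR (Log2FC -0.08 in E against D, 95% interval -0.17 to 0.01).

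Fitted in each sex alone, the letter contrast had opposite signs in males and females. In a fit of the 8 males, with genotype in the model, all 8 genes were higher in E than in D, with Log2FC from 0.02 (*Slc2a1*) to 0.26 (*Tek*) and a median of 0.12, beside 52% of all genes higher. The WT part of this fit rests on 1 animal of letter E, 1E. That animal was the highest WT male for 5 of the 8 genes and the lowest for 1, *Tie1* (19.1 CPM). In *Kdm5c*-KO males, *Cdh5* was at 22.3 and 19.5 CPM in E and at 23.2 and 19.4 in D. The male fit was not repeated without each male. In a fit of the 8 females, all 8 were lower in E than in D, with Log2FC from -0.05 (*Cldn5*) to -0.19 (*Kdr*) and a median of -0.14, beside 50.4% of all genes higher. edgeR called 0 of the 8 in males, where 11.3% of the genes tested were called and 3 of the 8 genes had an unadjusted p under 0.05, against 21.7% of all genes. In females it called 2 of the 8, *Kdr* and *Slc2a1*, where 14.1% of the genes tested were called. There, 3 of the 8 genes had an unadjusted p under 0.05 by edgeR, against 23.2% of all genes.

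Among females, *Kdr* was at 46.1 CPM in WT 1D, 53.1 in WT 3D, and 52.7 in *Kdm5c*-HET 9D, and at 43.3 in WT 4E, 44.0 in WT 5E, 48.7 in *Kdm5c*-HET 6E, 45.9 in 8E, and 42.1 in 9E. All but 1 of the 5 females of letter E lay below the 3 of letter D. *Slc2a1* was at 36.5 CPM in WT 1D, 33.8 in WT 3D, and 35.2 in *Kdm5c*-HET 9D. In letter E it was 30.1 in WT 4E, 29.4 in WT 5E, 31.2 in *Kdm5c*-HET 6E, 32.8 in 8E, and 33.6 in 9E. In males the 5 animals of letter D lay between 32.1 and 35.2 CPM for *Slc2a1* and the 3 of letter E between 34.7 and 35.8. In the 8 females, the Log2FC in E against D was -0.19 for *Kdr* (SE 0.0588, q = 0.0442 by edgeR) and -0.19 for *Slc2a1* (SE 0.0569, q = 0.0477 by edgeR). Each call was kept in 6 of 8 fits that left out 1 female: that of *Kdr* was lost without WT 3D (q = 0.227) or *Kdm5c*-HET 9D (q = 0.18), and that of *Slc2a1* without WT 1D (q = 0.221) or WT 5E (q = 0.137). For *Cdh5* and *Flt1*, the lower levels in E rested largely on *Kdm5c*-HET 9D, the only *Kdm5c*-HET female of letter D. Without it, the Log2FC of *Cdh5* went from -0.18 to -0.00019 and that of *Flt1* turned from -0.09 to 0.0014, while *Tek* went from -0.15 to -0.09 and *Tie1* from -0.12 to -0.07. The Log2FC of *Cldn5*, -0.05 with all females, was -0.0077 without *Kdm5c*-HET 9D and -0.02 without WT 5E. That of *Pecam1*, also -0.05, was 0.0088 without WT 1D and -0.02 without *Kdm5c*-HET 9D.

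The difference between the sexes in the letter contrast was then tested in 1 fit over all 16 animals, a comparison chosen after the values were seen. The female minus male difference was negative for all 8 genes, from -0.15 in *Flt1* to -0.42 in *Tek*, and 47.5% of all genes had a positive difference. For *Kdr* the difference was -0.36 (SE 0.0935, unadjusted p of 0.000886, q = 0.376 by edgeR). edgeR called 0 of the 8 in this contrast, where 0.0112% of the genes tested were called. By edgeR, 5 of the 8 had an unadjusted p under 0.05, against 7.44% of all genes. The 8 genes tended to move together within groups (r positive for 28 of 28 pairs), so they are not independent tests. Such shares, here and in the fits of each sex, are a description and not a test of the set. The contrast rests on 1 WT male of letter E and 1 *Kdm5c*-HET female of letter D. In the female fit, *Cdh5* and *Flt1* depended largely on that female. The fit over all 16 animals was not repeated without each animal. The female animals of letter D had total counts of 25362347 to 30063352 and those of letter E of 22938813 to 25171999, and the part of depth in this difference was not tested.

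**Figure D5:**
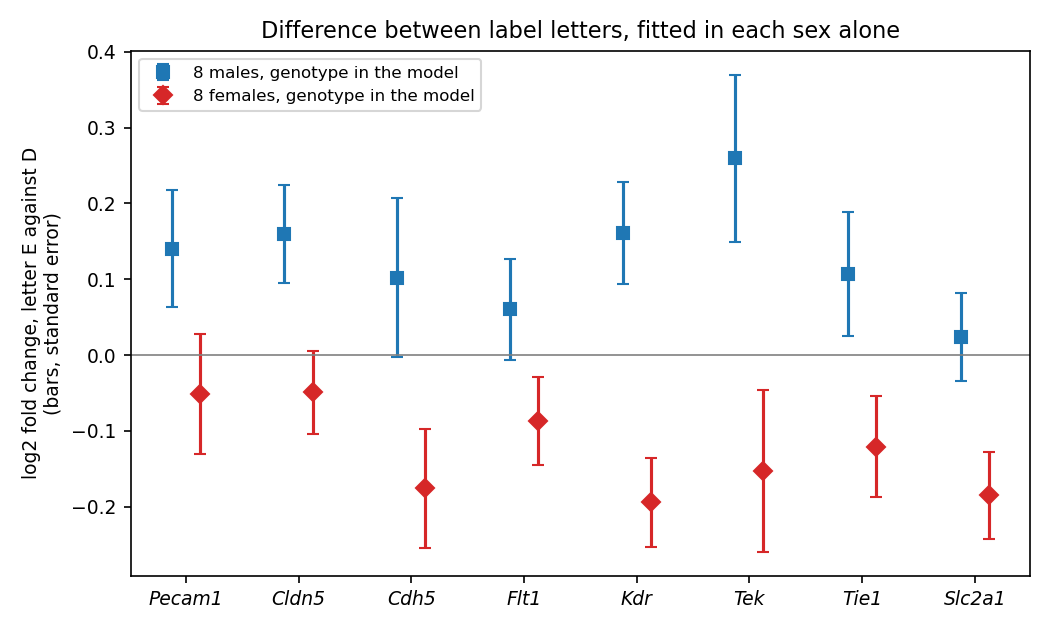
Log2FC of letter E against letter D (vertical axis, log2 scale, bars give the standard error) for each of the 8 endothelial genes, fitted in the 8 males (squares) and in the 8 females (diamonds) with genotype in the model. All 8 squares lie above 0, up to 0.26 in *Tek*, and all 8 diamonds below it, down to -0.19 in *Kdr*.

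Of a wider list of 38 endothelial genes written from general knowledge, identifiers of 3 were paired with a symbol, through the table of DEGs the study made from these same animals. These 3 were therefore chosen on these samples, and their direction is not independent evidence about endothelial genes. The remaining 35 were not analysed here, nor were the lists for VEGF and angiopoietin ligands, barrier induction by Wnt, and mural cells, of which 0 genes were paired. All 3 were upregulated in *Kdm5c*-KO males and in the average of the sexes, and 1 of the 3, *Rasip1*, was upregulated in *Kdm5c*-HET females.

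Another annotated gene overlaps the span of *Rasip1* over 3187 bases, and their reads may be mixed because the strand setting is not stated. *Rasip1* encodes a Ras-interacting protein needed for vessels to form a lumen. It lay at 23.5 CPM in WT male 1E, 23.0 in 2D, 23.2 in 5D, and 23.3 in 7D, and at 40.2 in *Kdm5c*-KO male 2E, 39.4 in 3E, 35.7 in 4D, and 38.1 in 6D. In females it lay at 23.2 CPM in WT 1D, 22.7 in 3D, 21.1 in 4E, and 25.2 in 5E, and at 26.8 in *Kdm5c*-HET 9D, 29.9 in 6E, 31.7 in 8E, and 29.8 in 9E. The mutants were above WT without overlap in each sex, with *Kdm5c*-HET females between the WT and the *Kdm5c*-KO levels. Such a separation was found for 5.04% of all genes tested in males and 2.78% in females. The Log2FC was 0.72 in males (SE 0.0629, q = 3.18e-07 by edgeR) and 0.36 in females (SE 0.0633, q = 0.00865), and the difference between them of 0.36 had q = 0.407 by edgeR. Relative to the mean of the 8 endothelial genes in the same animal, *Rasip1* was higher by 0.63 ± 0.0867 in *Kdm5c*-KO males and by 0.31 ± 0.201 in *Kdm5c*-HET females (log2, SD, n = 4), against the mean of the WT animals.

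The other members of the list encode transcription factors of endothelium. *Sox18* ranged from 9.82 to 12.1 CPM in WT males and from 12.3 to 15.8 in *Kdm5c*-KO males, with a Log2FC of 0.39 (SE 0.095, q = 0.0255 by edgeR). In females it ranged from 9.34 to 10.5 CPM in WT and from 10.6 to 13.2 in *Kdm5c*-HET animals, with a Log2FC of 0.19 (SE 0.0961, q = 0.832). *Bcl6b* ranged from 13.2 to 14.9 CPM in WT males and from 16 to 18.9 in *Kdm5c*-KO males, with a Log2FC of 0.32 (SE 0.0776, q = 0.0234 by edgeR), and had a Log2FC of 0.25 in females (SE 0.0778, q = 0.349). In each sex, the mutants lay above the WT animals for both genes, as for 5.04% of all genes tested in males and 2.78% in females. The gap in females was narrow. The lowest *Kdm5c*-HET and the highest WT animal were at 10.6 and 10.5 CPM for *Sox18*, and at 14.4 and 14.1 for *Bcl6b*. When the 6 animals with over 1000 counts of *Ttr* were left out, calls by edgeR were lost for *Sox18* in males (Log2FC 0.38, q = 0.377) and in the average (0.34, q = 0.201), for *Bcl6b* in males (0.30, q = 0.347), and for *Rasip1* in females (0.29, q = 0.681), with folds close to those of all animals for *Sox18* and *Bcl6b* in males. *Rasip1* stayed called in males.

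Across the 16 animals, the mean of the 8 genes (each standardized on the log2 scale) was compared with the level of every other gene tested. The highest correlations were with ENSMUSG00000028766 (r = 0.901) and ENSMUSG00000038393 (r = 0.861), and none of the 10 nearest genes has a paired symbol. Among genes with a symbol, the nearest were *Sspn* (r = 0.772), *Adam33* (r = 0.755), *Igfbp4* (r = 0.742), and *Bcl6b* (r = 0.716), at ranks 17, 27, 36, and 50 of 17858. *Sox18* (r = 0.502) and *Rasip1* (r = 0.38) followed at ranks 744 and 1782. On deviations from the group means, *Rasip1* turned to an r of -0.334 (rank 15037) and *Sox18* dropped to 0.178 (rank 5959), while *Sspn* (0.725, rank 200), *Adam33* (0.733, rank 176), *Igfbp4* (0.644, rank 461), and *Bcl6b* (0.732, rank 178) kept a positive r. The median r over the 17858 genes was 0.00475, and 4.54% of them had an r above 0.49. Each of the 8 genes had an r of 0.492 (*Pecam1*) to 0.722 (*Cldn5*) with the mean of the other 7. These values describe the same 16 libraries and include the differences between groups.

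Some genes of blood and choroid plexus differed between *Kdm5c*-KO and WT males. They were paired through the table of DEGs from these same animals, so such differences were likely beforehand. Of 6 blood genes, 4 were paired, all globin genes, and their summed level was 118 to 146 CPM in WT and 66.1 to 107 in *Kdm5c*-KO males, and 90.8 to 104 in WT and 96.1 to 103 in *Kdm5c*-HET females. By edgeR, 3 of these 4 fell in *Kdm5c*-KO males, in a contrast where 302 of the 17866 genes tested fell. In *Kdm5c*-HET females, 0 of them changed, where 0.509% of the genes tested were called. Of 8 choroid plexus genes, 3 were paired, and their sum ranged from 2.17 to 207 CPM in WT and from 2.67 to 3.56 in *Kdm5c*-KO males, and from 5.29 to 196 in WT and from 4.13 to 87.6 in *Kdm5c*-HET females. All 3 fell in *Kdm5c*-KO males and 0 changed in females by edgeR. *Ttr*, the leading choroid plexus gene, was at 0.277 CPM in WT male 1E, below the 1.59 to 2.21 CPM of *Kdm5c*-KO males. It had over 1000 counts in WT males 2D and 5D, WT females 1D and 3D, and *Kdm5c*-HET females 8E and 9E. Without these 6 animals, the averaged Log2FC of *Tie1* was 0.28 with q = 0.15 by edgeR, and 0 of the 8 endothelial genes were called. That Log2FC was above the 0.19 of all animals. The fit had fewer animals in every group but *Kdm5c*-KO males, and no WT female of letter D. Of the lists for neurons and astrocytes, 1 gene each was paired. In *Kdm5c*-KO males, the neuronal gene *Rbfox3* fell with a Log2FC of -0.19 (q = 0.0642 by edgeR), while the astrocyte gene *Aqp4* had a Log2FC of -0.24 (q = 0.115), and neither was called in females. The paired genes of these lists were also taken from the table of DEGs, and the part of RNA from blood, choroid plexus, or these other cell types in the differences above was not tested.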

How the data were processed

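Forebrain RNA of 16 P6 mice was sequenced as poly(A)-enriched, directional, paired-end libraries. Per the labels and the methods, the authors aligned reads to mm10 with STAR 2.5.3a, discarded duplicates and multi-mapping reads, and deposited raw counts per gene from featureCounts (Subread 1.5.0). The authors describe a single batch for the laboratory work and applied no correction for batch. Samples were grouped by the genotype and sex of the labels.

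Analysis of the counts used edgeR 4.0.16 (R 4.3.3): filterByExpr by group (17866 genes kept), TMM normalization, and glmQLFit with 1 mean per group over all 16 animals. Contrasts were tested with glmQLFTest, p-values were adjusted over all genes tested, and q under 0.1 was called. Intervals are 95%. Correlations were computed on log2 CPM (prior count 2) with 100000 permutations of animals within groups. The letter contrast added the letter to the groups.

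The members, lists, and tests were chosen with earlier results of these data known. Alternatives were DESeq2 1.42.0, its size factors in edgeR, no filter, at least 10 counts in every animal, the letter as a covariate, fits of 1 sex, q under 0.05, a prior count of 0.5, and leaving out each animal. Added after seeing the data were fits without animals above 1000 *Ttr* counts, the letter by sex, and the letter in females without each female. The tests were first run on simulated data.

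All 8 members were named whatever their result. From each marker list, up to 4 paired genes with the smallest adjusted p could be named, and the 10 genes most correlated with the members where a symbol was paired. Symbols of other genes came from the table of DEGs of the study, which with the members pairs 1029 identifiers, of them 13 of 133 list symbols. *Sspn*, *Adam33*, and *Igfbp4* were named after their values were seen, since none of the 10 nearest genes has a symbol. Positions are from RefSeq by symbol. The result of 1 marker list is not reported here.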

Additional observations from a re-analysis of the deposited data

Results flagged for a closer look

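In 32 tests for a value far from the others of its group (8 genes in 4 groups of 4 animals), 3 animals stood apart by Dixon's ratio, the gap to the nearest animal divided by the range of the group, with a critical value of 0.829. Chance alone flags about 1 in 20 groups. *Cdh5* in *Kdm5c*-HET female 9D was 26.4 CPM, the highest of its group, with a ratio of 0.87. *Pecam1* in WT male 5D was 16.6 CPM, the lowest of its group, with a ratio of 0.836. *Tek* in WT female 5E was 10.9 CPM, the lowest of its group, with a ratio of 0.832.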

How the results depend on the processing

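The counts of called endothelial genes were the same under every planned or added setting run in *Kdm5c*-KO males, in *Kdm5c*-HET females, in the interaction, and between WT sexes (0 of 8 in each). In the average of the sexes, the count of 1 (*Tie1*) became 0 at q under 0.05 and 0 with animals of at most 1000 *Ttr* counts, and ranged from 0 to 1 when each animal was left out. In letter E against D, the count of 0 became 2 in the 8 females. Small fold changes changed sign, all without a call: *Flt1* in females was -0.00255 with DESeq2, -0.00271 with DESeq2 size factors, and -0.00125 with no filter. *Cdh5* in males was 0.000616 with no filter, 0.00331 with at least 10 counts in every animal, and 0.00325 with the letter as a covariate. *Kdr* in males was -0.00128 in animals with at most 1000 *Ttr* counts. In the letter contrast, *Slc2a1* was 0.0236 in the 8 males and *Cldn5* was -0.0491 in the 8 females. When each animal was left out, Log2FC in males ranged from -0.0741 to 0.0700 for *Cdh5* and from -0.0166 to 0.171 for *Tek*. In females it ranged from -0.0544 to 0.0362 for *Flt1*, from -0.0362 to 0.0876 for *Kdr*, from -0.0474 to 0.110 for *Tek*, and from -0.0164 to 0.0896 for *Slc2a1*, and for the interaction of *Tie1* from -0.0967 to 0.00998. The cause was not tested. *Tie1* kept its positive sign in males, in females, and in their average under every setting run. Of the 10 genes most like the endothelial genes, 1 remained among the nearest 10 when deviations from the group means were used. No paired analysis was possible because each number and letter together names 1 animal, and the mutant and WT animals of a sex share at most 1 number. The letter was instead fitted as a covariate.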
